A study of Mus musculus with 6 samples.

Results

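The lysyl oxidase family of the mouse has 5 genes, *Lox*, *Loxl1*, *Loxl2*, *Loxl3* and *Loxl4*, which were taken by symbol from bulk RNA-seq of healing tendons. All 5 were among the 53819 genes listed, had counts in each of the 6 libraries and passed the filter on low counts with 17496 genes in all. The flexor digitorum longus (FDL) tendon of the hind paw was cut and repaired in male and female mice aged 10 to 12 weeks, and 1 tendon was sequenced per library at D28 post-surgery (the titles instead call it day 28 after depletion). The 3 DTR tendons (DTR ScxLin) came from Scx-Cre+; DTR F/+ mice, and the 3 WT tendons from Scx-Cre-; DTR F/+ littermates. The *Scx* driver, which is not inducible, removes a stop cassette in *Scx*-lineage cells, so that the diphtheria toxin receptor is made there and the toxin kills those cells. It marks every cell with a history of *Scx* expression, and the fraction of cells that was removed is not known for these tendons. WT mice carry the same receptor allele with the stop cassette in place, and both groups received 5 daily injections of diphtheria toxin between D14 and D18. The comparison therefore asks how the tendon's transcripts differed after loss of the lineage during the proliferative phase of healing. The WT libraries, in order of replicate, held 45184255, 47570157 and 44104578 counts on genes, and the DTR libraries held 47125566, 48854310 and 42744138.

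Lysyl oxidases are secreted copper enzymes that oxidize lysine and hydroxylysine side chains of collagen and lysine side chains of elastin. The aldehydes formed in this way react further into the covalent cross-links that make collagen fibrils and elastic fibres stiff and insoluble, and tendon is among the tissues that depend on them for strength. *Lox* and *Loxl1* encode proenzymes with a propeptide that is cut off outside the cell. *Loxl2*, *Loxl3* and *Loxl4* encode proteins with scavenger receptor cysteine-rich domains in front of the same kind of catalytic domain.

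The part of the genes that all 5 share is the catalytic domain, and its histidine-rich copper-binding stretch is shown for 4 of them to let their likeness be seen. Each run is 57 bases of coding sequence from GENCODE M21 transcripts (GRCm38), 5′ to 3′ on the coding strand, with the 4 histidine codons of the motif in capitals.
Loxl1: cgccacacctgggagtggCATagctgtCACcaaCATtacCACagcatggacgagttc
Loxl2: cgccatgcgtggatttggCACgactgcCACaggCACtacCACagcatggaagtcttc
Loxl3: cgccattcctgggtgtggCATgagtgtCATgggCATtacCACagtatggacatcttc
Loxl4: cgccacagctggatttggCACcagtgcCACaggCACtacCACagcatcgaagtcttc
The stretch is spliced from 2 neighbouring coding exons in each gene. It spans exons 3 and 4 of the *Loxl1* transcript (chr9:58293705-58294390, minus strand), exons 10 and 11 of *Loxl2* (chr14:69682307-69689052, plus strand), exons 10 and 11 of *Loxl3* (chr6:83049986-83050140, plus strand) and exons 11 and 12 of *Loxl4* (chr19:42598792-42599908, minus strand). *Loxl2* and *Loxl4* were identical at 50 of the 57 bases, and *Loxl1* and *Loxl3* at 43. *Lox* and *Loxl1* were the most alike pair, at 52 of the 57. Over whole transcripts the longest run shared by any pair was 32 bases (*Lox* and *Loxl1*), and no pair shared a run of 50 bases, so a read of 50 bases without mismatch has 1 source within the family.

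Of the 5 genes, *Lox* had the largest fitted difference between the groups, and differences between members were not tested other than as ratios to *Lox*. The order of the others was not stable, since *Loxl4* (0.22) was above *Loxl2* (0.16) on the log2 scale without DTR replicate 1. With all libraries *Loxl4* was at 0.21 and *Loxl2* at 0.26. All 5 had a fitted log2 fold change above 0 in DTR tendons, from 0.11 to 0.66, where 51.5% of all genes tested were fitted higher and 48.5% lower. None of the 5 had an adjusted p under 0.05 in edgeR's quasi-likelihood test, which called 0% of all genes higher. In *Lox* and *Loxl1* each DTR library was above each WT library, a separation shown in that direction by 8.96% of the genes tested. The same 2 genes had an unadjusted p under 0.05, as did 5.52% of the genes in that direction and 5.45% in the other.

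**Figure D1:**
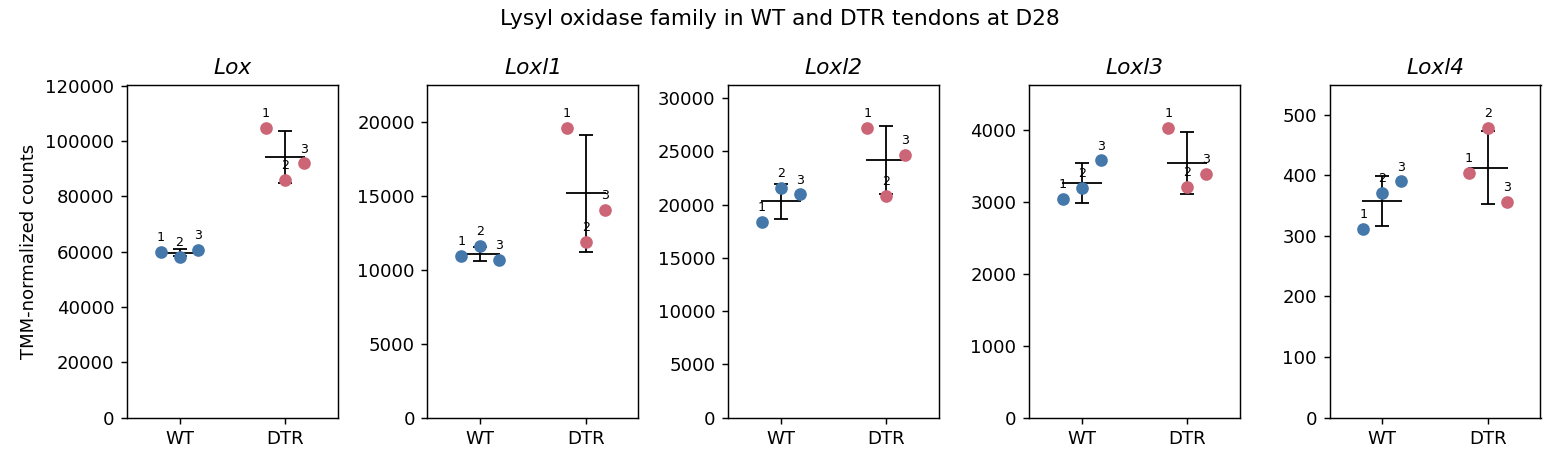
TMM-normalized counts (vertical axes, each from 0) of the 5 lysyl oxidase genes in WT and DTR tendons. Points are libraries numbered by replicate, long bars are means and error bars are SD (n = 3 per group); in *Lox* the 3 DTR libraries, from 86095 to 104633, lie above the 3 WT libraries, from 58141 to 60603.

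*Lox*, the founding member and the main cross-linking enzyme of fibrillar collagen, was read at 60069, 58141 and 60603 in the WT libraries (counts normalized by TMM, a scaling for library composition, here and below in the order of replicates 1, 2 and 3). The DTR libraries stood at 104633, 86095 and 91920. The WT libraries lay close together, with a coefficient of variation of 2.17%, and the lowest DTR library was 1.42 times the highest WT library. The group means were 59605 ± 1295 for WT and 94216 ± 9480 for DTR (SD, n = 3 each), a 1.58-fold difference (95% interval 1.28 to 1.95) or 0.66 on the log2 scale (standard error, SE, 0.13). For *Lox*, edgeR's quasi-likelihood test gave an unadjusted p of 0.00119, 72nd from the smallest of all genes tested, and an adjusted p = 0.274 (edgeR). DESeq2's Wald test, the method of the study, gave an adjusted p = 5.78e-06 for *Lox*, where it called 1.12% of all genes higher. *Lox* is among the ECM genes that the study picked with that test on these libraries, so the call is not independent evidence. Without DTR replicate 2, edgeR's adjusted p was 0.0429 and the log2 fold change 0.72, and in that fit 0.572% of all genes were called higher.

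*Loxl1*, whose enzyme is best known for its role in elastic fibres, was at 10962, 11620 and 10687 normalized counts in the WT libraries. Its DTR libraries had 19597, 11902 and 14067. The groups did not overlap, but DTR replicate 2 was only 1.02 times the highest WT library, and DTR replicate 1 stood far above the other two. Group means were 11090 ± 479 for WT and 15189 ± 3968 for DTR (SD, n = 3 each). The difference was 0.45 on the log2 scale (SE 0.18, edgeR adjusted p = 0.441), and it was 0.22 without DTR replicate 1. DESeq2 did not call *Loxl1* (adjusted p = 0.188).

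*Loxl2*, which also cross-links collagen IV of basement membranes, was at 18386, 21528 and 20944 normalized counts in the WT libraries. It was at 27150, 20814 and 24691 in the DTR libraries. DTR replicates 1 and 3 were above the WT range and DTR replicate 2 was inside it. The difference was 0.26 on the log2 scale (SE 0.13, edgeR adjusted p = 0.506), and it was 0.16 without DTR replicate 1. The 95% interval of the fold, from 0.963 to 1.48, held both no difference and one nearly as large as the estimate for *Lox*. The exons of *Loxl2* share 301 bases with the antisense gene *Gm27177*, and *Gm27177* was at 0 counts in all 6 libraries.

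*Loxl3* stood at 3036, 3189 and 3575 normalized counts in the WT and at 4022, 3206 and 3384 in the DTR libraries. DTR replicate 1 was the highest of the 6, and the other DTR libraries were within the WT range. The fold of 1.08 had a 95% interval from 0.904 to 1.30 (0.11 on the log2 scale, SE 0.11, edgeR adjusted p = 0.718). Without DTR replicate 1 the log2 fold change was 0.0083, without WT replicate 1 it was 0.065, and without WT replicate 3 or DTR replicate 2 it was 0.18. *Loxl3* shares 535 bases of annotated exon, 11.6% of its own, with *Htra2* on the opposite strand. The labels name a library kit that marks strand and also another kit, and whether the counting used strand is not given in the sources used here, so reads in that overlap are uncertain. *Htra2* itself differed by 0.20 on the log2 scale (edgeR adjusted p = 0.501).

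*Loxl4*, the least abundant member, was at 312, 371 and 390 normalized counts in the WT libraries. It was at 404, 477 and 356 in the DTR libraries. The highest *Loxl4* library was DTR replicate 2, which was the lowest DTR library for the other 4 genes. The difference was 0.21 on the log2 scale (SE 0.17, 95% interval of the fold 0.882 to 1.51, edgeR adjusted p = 0.654), and the groups overlapped. It was 0.091 without DTR replicate 2 and 0.12 without WT replicate 1.

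**Figure D2:**
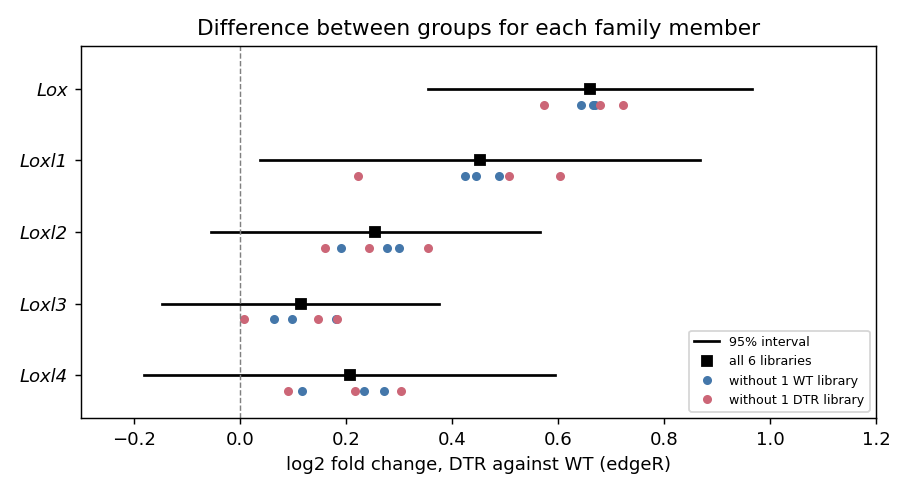
Log2 fold change of DTR against WT tendons (horizontal axis) for each lysyl oxidase gene, from edgeR. Squares use all 6 libraries with their 95% interval, and the dots below each are fits with 1 library left out, coloured by the group it came from; the interval lies above 0 for *Lox* and *Loxl1*, and the lowest dot of *Loxl1*, at 0.22, is the fit without DTR replicate 1.

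The libraries held other tissues in unequal amounts, and these values stand beside the family's. A list of 15 skeletal muscle markers, led by *Acta1*, *Atp2a1* and *Myh1*, took up 2.22%, 1.96% and 1.57% of the counts in the WT libraries. It took up 0.267%, 1.96% and 0.507% in the DTR libraries, with none of the 15 at 0 in any library. DTR replicate 1 thus had the least muscle RNA and the highest *Lox*, *Loxl1*, *Loxl2* and *Loxl3*. DTR replicate 2, whose muscle share was within the WT range, had 1.44 times the WT mean of *Lox*, 1.07 times that of *Loxl1*, 1.03 times that of *Loxl2* and 0.982 times that of *Loxl3*. With the muscle share as a covariate, the log2 fold change of *Lox* was 0.52, that of *Loxl1* 0.077, that of *Loxl2* 0.033, that of *Loxl3* -0.067 and that of *Loxl4* 0.33. Removal of the 15 muscle genes before normalization left the log2 fold changes at 0.66 for *Lox*, 0.45 for *Loxl1*, 0.26 for *Loxl2*, 0.11 for *Loxl3* and 0.21 for *Loxl4*.

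A list of 12 keratinocyte markers, with *Krt10* its most abundant gene where it was present, held 0.333% and 0.210% of the counts in WT replicates 1 and 2 and 0.0324% in DTR replicate 3. In WT replicate 3 and DTR replicates 1 and 2 it held at most 0.00172%, with 4 to 6 of the 12 genes at 0. Among those 3 libraries *Lox* was 60603 in WT replicate 3 against 104633 and 86095 normalized counts in DTR replicates 1 and 2, and a fit on these libraries alone put the difference at 0.65 on the log2 scale. That fit holds 1 WT library, which is assumed to vary like the DTR pair, so its p is not informative. Adipocyte markers also differed, with 5 of 7 lower in each DTR library than in each WT library (7.85% of all genes tested were separated in that direction), although *Fabp4*, the most abundant, overlapped. DESeq2 called 4 of the 7 adipocyte markers lower (1.53% of all genes) and edgeR called 0. That list held 0.0117%, 0.0153% and 0.0210% of the counts in WT and 0.00865%, 0.0146% and 0.0111% in DTR replicates 1 to 3, and 1 of its genes was at 0 in DTR replicates 1 and 3. Smooth muscle and pericyte markers (8 genes, led by *Rgs5*, none at 0) held 0.198%, 0.185% and 0.231% of the counts in WT libraries. They held 0.133%, 0.176% and 0.164% in DTR libraries. The summed share did not overlap, but each single gene of the 8 did. *Des*, a gene of this list, was at 30858, 25757 and 24981 normalized counts in the WT libraries. It was at 6993, 30236 and 12912 in the DTR libraries, and so ranked like the skeletal muscle share within each group. The summed share without *Des* was not tested. The part of the adipocyte and smooth muscle lists in the family's values was not tested. Macrophage markers (12 genes, led by *Lyz2*, none at 0) held between 0.381% and 0.466% in all 6 libraries, endothelial markers (10 genes, led by *Pecam1*) between 0.0687% and 0.0908%, cartilage and bone markers (10 genes, led by *Acan*) between 0.0163% and 0.0305%, and lymphoid markers (8 genes, led by *Cd4*) between 0.00121% and 0.00269%. The summed share overlapped between the groups in each of these 4 lists. Without overlap were 1 of 12 macrophage genes (lower) and 1 of 8 tested cartilage and bone genes (lower). Of 8 lymphoid genes 1 was higher and 1 lower without overlap, and of 10 endothelial genes 0 were in either direction. *Cd163*, a scavenger receptor of a macrophage subset, was at 2512, 2713 and 2122 normalized counts in the WT and at 489, 1123 and 944 in the DTR libraries (-1.52 on the log2 scale, SE 0.31, edgeR adjusted p = 0.293), and DESeq2 called it lower. *Matn3* and *Ms4a1* were also lower and *Nkg7* higher without overlap (7.85% and 8.96% of all genes tested), and neither tool called them. *Ms4a1* and *Nkg7* were at very low levels. *Ms4a1* had 18.3 to 19.8 normalized counts in WT and 5.74 to 9.25 in DTR libraries. *Nkg7* had 11.4 to 22.3 in WT and 23.6 to 31.6 in DTR libraries. The part of these genes' cells in the family's values was not tested.

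Markers of tendon cells (9 genes, led by *Col1a1*, none at 0) held 2.26%, 2.59% and 2.72% of the counts in WT and 3.24%, 2.69% and 3.18% in DTR libraries, so the summed share overlapped. Of the 9, 7 were fitted higher and 2 lower, 4 were higher without overlap (8.96% of all genes tested), and DESeq2 called 1 higher, *Thbs4* (0.65 on the log2 scale, SE 0.16). The 2 fitted lower were *Comp* (-0.18) and *Fmod* (-0.17), both matrix proteins of tendon. *Scx*, the tendon transcription factor whose lineage had been depleted, was at 2656 ± 433 normalized counts in WT and 3471 ± 62.3 in DTR tendons (SD, n = 3 each), 0.39 apart on the log2 scale (SE 0.12, edgeR adjusted p = 0.371), with each DTR above each WT library. *Tnmd*, a membrane protein of mature tenocytes, averaged 61705 ± 13041 and 76170 ± 15925 (SD, n = 3 each), and the groups overlapped. In whole tendon, more cells that express *Lox* and more *Lox* RNA per cell cannot be told apart. The animals were of both sexes in each group, since *Xist* exceeded the Y-linked *Ddx3y* in 1 WT and 2 DTR libraries. With sex as a covariate the log2 fold change of *Lox* was 0.70.

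Levels of different genes were compared per kb of the longest annotated transcript. On this scale *Lox* led the family in each library, at 12572 ± 273 normalized counts per kb in WT and 19873 ± 2000 in DTR tendons (SD, n = 3 each). *Loxl2* (3816 ± 314 per kb in WT) and *Loxl1* (3364 ± 145 per kb in WT) followed, with *Loxl2* above *Loxl1* in each of the 3 WT libraries. In DTR tendons they were at 4556 ± 601 and 4607 ± 1204 per kb, with *Loxl2* above *Loxl1* in replicates 2 and 3 and below it in replicate 1. *Loxl3* was at 797 ± 67.8 and 863 ± 105 per kb, and *Loxl4* at 95.6 ± 10.9 and 110 ± 16.3 per kb, in WT and DTR tendons (SD, n = 3 each). Among 17104 tested genes with an annotated length, only 0.649% had a higher mean level per kb than *Lox*, 3.12% were above *Loxl2*, 3.35% above *Loxl1*, 19.1% above *Loxl3* and 64.9% above *Loxl4*. Of the family's transcripts the healing tendon held mostly *Lox*, with *Loxl1* and *Loxl2* at similar levels, little *Loxl3* and very little *Loxl4*. With the median in place of the longest transcript length *Loxl3* stood second, since 3 of its 5 annotated transcripts are short and non-coding.

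The length-scaled sum of the 5 genes came to 20278, 20715 and 20941 per kb in the WT and to 34210, 26595 and 29221 per kb in the DTR libraries. *Lox* made up 62.5%, 59.2% and 61.0% of that sum in WT and 64.5%, 68.3% and 66.4% in DTR tendons. *Loxl2* made up 17.1% to 19.6% in WT and 14.7% to 15.9% in DTR tendons. *Loxl3* made up 3.65% to 4.17% in WT and 2.83% to 2.94% in DTR tendons, and neither share overlapped between the groups. The levels of both genes were themselves fitted higher in DTR tendons, and 63.5% of the genes outside the family were lower without overlap when divided by the family's sum. The share of *Loxl1* overlapped, at 15.5% to 17.0% in WT and 13.6% to 17.4% in DTR tendons.

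**Figure D3:**
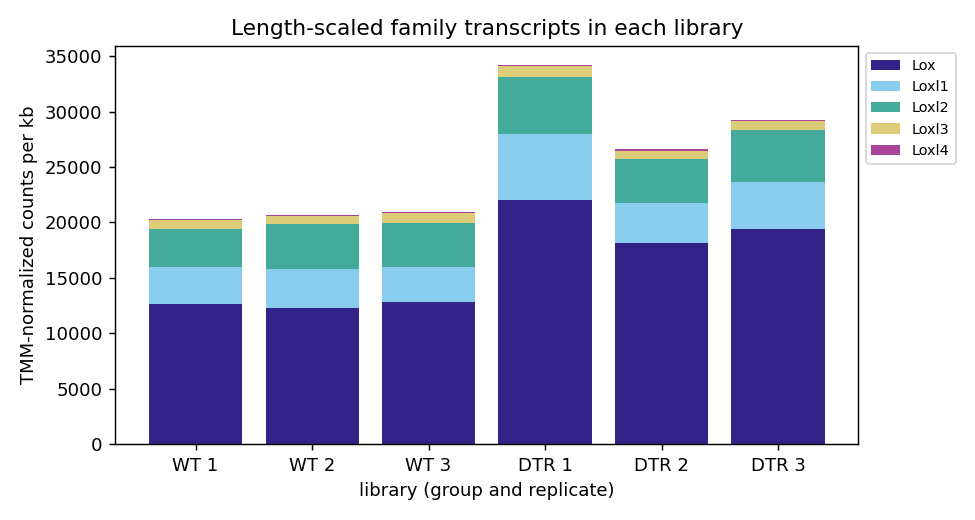
TMM-normalized counts per kb of longest transcript (vertical axis), stacked over the 5 lysyl oxidase genes, in each library (horizontal axis, group and replicate). *Lox* is the tallest layer in all 6 bars, and the 3 DTR bars, from 26595 to 34210, are taller than the 3 WT bars, from 20278 to 20941.

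The balance within the family was examined as the ratio of each paralogue to *Lox* in the same library, in which library size and normalization cancel. *Loxl3* had 5.05, 5.49 and 5.90 counts per 100 *Lox* counts in the WT and 3.84, 3.72 and 3.68 in the DTR libraries. *Loxl2* had 30.6, 37.0 and 34.6 counts per 100 *Lox* counts in WT and 26.0, 24.2 and 26.9 in DTR libraries. For both genes each DTR ratio was below each WT ratio, as it was for 73.8% of the other 17495 genes tested when set against *Lox* in the same way, so the separation is not particular to these paralogues. The log2 ratio differed by -0.54 for *Loxl3* and -0.41 for *Loxl2*, each with a two-sided exact permutation p of 0.1, the smallest that 3 against 3 libraries allow (0.2 after adjustment over the 4 ratios).

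Relative to *Lox*, *Loxl1* and *Loxl4* overlapped between the groups. *Loxl1* had 18.3, 20.0 and 17.6 counts per 100 *Lox* counts in WT and 18.7, 13.8 and 15.3 in DTR libraries (log2 difference -0.23, exact permutation p = 0.3, n = 3 each). *Loxl4* had 0.519, 0.638 and 0.643 in WT and 0.386, 0.554 and 0.388 in DTR libraries (log2 difference -0.45, exact permutation p = 0.2, n = 3 each). The *Loxl1* ratio was kept in DTR replicate 1, the library in which *Loxl1* itself was highest, and lowest in DTR replicate 2.

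*Lox* was also set beside transcripts of its substrates and of other tendon genes. Per 100 counts of *Col1a1*, which encodes the alpha 1 chain of collagen I, there were 13.2, 11.7 and 11.5 *Lox* counts in the WT and 13.7, 19.8 and 14.2 in the DTR libraries. Per 100 counts of *Col1a2*, the other collagen I chain, there were 8.44, 8.12 and 7.45 in WT and 9.26, 11.6 and 9.88 in DTR libraries. Both ratios separated the groups, by a narrow margin for *Col1a1*, as did those of 73.8% of all other genes tested, so this is not particular to collagen I. Against *Col3a1*, the collagen III gene, the ratio overlapped, at 8.95, 9.68 and 8.37 *Lox* counts per 100 in WT and 8.48, 10.8 and 10.5 in DTR libraries.

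Relative to several other genes the ratio of *Lox* showed no separation of the groups. Per 100 counts of *Thbs4*, a thrombospondin of the tendon matrix, there were 24.6, 23.7 and 22.5 *Lox* counts in WT and 23.5, 22.3 and 25.7 in DTR libraries. For *Fbn1*, the main fibrillin of microfibrils, these values were 135, 108 and 128 in WT and 135, 103 and 113 in DTR libraries. Per count of *Scx* there were 27.3, 21.5 and 19.8 *Lox* counts in WT and 30.1, 25.3 and 26.0 in DTR libraries, so that only WT replicate 1 was within the DTR range. The ratio to *Eln*, which is not plotted, also overlapped, at 10.9, 6.01 and 5.11 *Lox* counts per *Eln* count in WT and 15.8, 4.78 and 14.1 in DTR libraries. *Thbs4* and *Fbn1* are also among the genes that the study picked on these libraries.

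**Figure D4:**
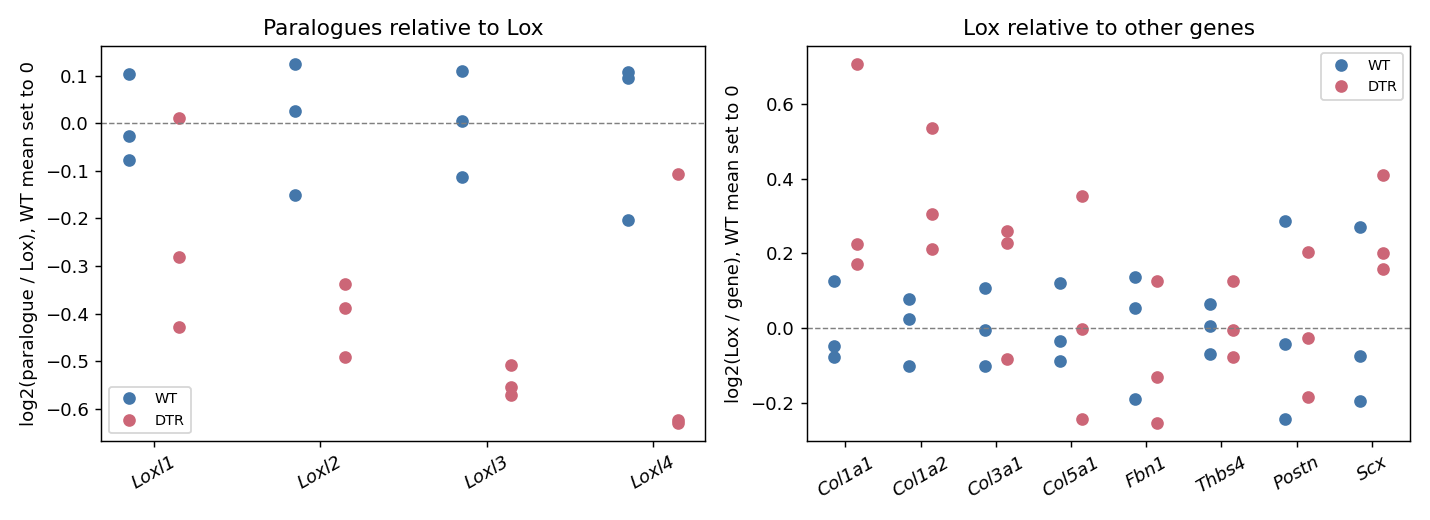
Log2 ratio of each paralogue to *Lox* (left) and of *Lox* to other genes (right), as points per library with the WT mean set to 0. On the left the 3 DTR points lie below the 3 WT points for *Loxl2* and *Loxl3*; on the right they lie above for *Col1a1* and *Col1a2* and overlap for the other 6 genes plotted, where 73.8% of all other genes tested separate from *Lox* in this direction.

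The genes closest to each member were found by the root mean square difference of log2 CPM over the 6 libraries, with each gene centred on its mean, among 14408 other genes with at least 50 normalized counts on average. For *Lox* they were *Utp14b* (0.0564), *Smc2* (0.0619), *Rab15* (0.0635), *Thbs4* (0.0716) and *Mlkl* (0.0726). *Smc2* encodes a condensin subunit and *Mlkl* the effector of necroptosis. For *Loxl1* they were *Fzd1* (0.0324), a Wnt receptor gene, *Ulk4* (0.0455) and *Plxdc1* (0.0655). *Ror1*, *Lrp11* and *Tsku* were closest to *Loxl2* (0.0323 to 0.0369), *Zfp69* and *Mindy4* to *Loxl3* (0.0273 and 0.0299), and *Ndufaf8*, *Sdhaf4* and *Pld1* to *Loxl4* (0.0414 to 0.0513). Within the family the smallest difference was between *Loxl2* and *Loxl3* (0.105) and the largest between *Loxl1* and *Loxl4* (0.321), so no member was among the nearest genes of another.

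The genes around cross-linking were described by list, beside a median log2 fold change of 0.0082 over all genes tested. edgeR's quasi-likelihood test called 0 members of any list at an adjusted p under 0.05, as it called 0% of all genes in either direction, so counts by DESeq2 are given as well (1.12% of all genes higher and 1.53% lower). Among 11 fibrillar collagen genes, the substrates, the median log2 fold change was 0.39, 3 were called higher by DESeq2 and 6 had each DTR library above each WT library (8.96% of all genes tested). The 3 were *Col5a1* (0.66 on the log2 scale, SE 0.22), *Col5a3* (0.87, 0.22) and *Col24a1* (0.76, 0.11), all picked by the study on these libraries. *Col1a2*, the most abundant, was at 0.32 (SE 0.21) and *Col2a1*, the lowest, at -0.28 (0.16).

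Of 16 elastic fibre genes, the median was 0.27, with 12 fitted higher. *Eln*, which encodes elastin, ranged widely, with 5488, 9677 and 11866 normalized counts in the WT and 6632, 18013 and 6542 in the DTR libraries. The groups overlapped (0.21 on the log2 scale, SE 0.54). DESeq2 called 2 of the 16 higher, *Fbn1*, whose normalized count averaged 48491 ± 4827 for WT and 80901 ± 2828 for DTR (SD, n = 3 each), and *Mfap5*, a microfibril protein gene, with 19995 ± 2638 and 31098 ± 1450 (SD, n = 3 each), both picked by the study. *Fbln5* and *Efemp2*, whose fibulins tether elastin and the lysyl oxidases, differed by 0.090 (SE 0.077) and 0.28 (0.20) on the log2 scale. *Fbn2* was the highest of the list at 0.87 (0.38) and *Mfap4* the lowest at -0.23 (0.23). Without DTR replicate 1 the median of the list was 0.069.

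The hydroxylases and chaperones act on collagen before the lysyl oxidases do. Of 18 such genes 16 were fitted higher, with a median of 0.27, and 1, the prolyl hydroxylase subunit *P4ha3*, was called by DESeq2 (2540 ± 74.9 normalized counts in WT and 4403 ± 865 in DTR tendons, SD, n = 3 each). The lysyl hydroxylases, which set whether a cross-link starts from lysine or hydroxylysine, differed on the log2 scale by 0.22 (SE 0.14) for *Plod1*, 0.28 (0.17) for *Plod2* and 0.23 (0.14) for *Plod3*. All 3 overlapped between the groups, while 5 of the 18 were higher without overlap (8.96% of all genes tested). By edgeR, 7 of the 18 were higher at an unadjusted p under 0.05 (5.52% of all genes tested). *P4hb*, the most abundant of the list, was at 0.26 (0.14) and *P3h2*, the lowest, at -0.20 (0.14).

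A list of 12 genes for propeptide processing and recruitment had a median of 0.19, which was 0.079 without DTR replicate 1 and 0.29 without DTR replicate 2. *Bmp1*, the proteinase that activates the *Lox* and *Loxl1* proenzymes, averaged 20046 ± 678 normalized counts in WT and 22876 ± 4121 in DTR tendons (SD, n = 3 each), with overlap. *Pcolce*, a proteinase enhancer, was at 0.18 (SE 0.14), while *Pcolce2* was the lowest of the list at -0.73 (0.31, adjusted p = 0.464 from edgeR), with each DTR library below each WT library. Of the 12, 3 were higher and 1 lower without overlap, beside 8.96% and 7.85% of all genes tested. The matrix proteins *Postn* and *Fn1*, which bind *Bmp1* or the proenzymes, were at 0.67 (0.23) and 0.37 (0.25). DESeq2 called *Postn*, *Thbs1* and *Adamts14* higher, 3 genes that the study also picked.

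Copper reaches these enzymes in the secretory pathway. None of the 10 tested copper supply genes was called by edgeR or DESeq2 in either direction or had an unadjusted p under 0.05, and the median was 0.010. The Golgi copper pump gene *Atp7a* averaged 839 ± 101 normalized counts in WT and 894 ± 218 in DTR tendons, and the copper importer gene *Slc31a1* 3915 ± 220 and 4288 ± 449 (SD, n = 3 each). The most negative was *Cp*, for ceruloplasmin, at -0.42 (SE 0.21), and *Sparc*, listed as a copper-binding matrix protein, was at 0.23 (0.18). Of the other copper amine oxidases, which share the chemistry but not the fold, *Aoc3* was at -0.32 (0.18) and *Aoc2* at -0.27 (0.22), and *Aoc1* did not pass the filter on low counts.

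Transcription of *Lox* genes is known to respond to TGF-beta and to hypoxia. A list of 12 TGF-beta responsive genes had a median of 0.27, and DESeq2 called 2 higher, *Postn* among them, both picked by the study. *Acta2*, the smooth muscle actin gene of myofibroblasts, was the lowest at -0.37 (SE 0.29), and without DTR replicate 1 the median of the list was 0.081. A list of 13 hypoxia responsive genes had a median of -0.094, with 8 fitted lower and none called by edgeR or DESeq2. Its range ran from *Egln3* at -1.38 (0.63) to *Car9* at 0.88 (0.44), and at an unadjusted p under 0.05 there were 2 lower (*Bnip3* and *Ndrg1*) and 0 higher, beside 5.45% and 5.52% of all genes tested. *Ldha*, the most abundant of the list, was at -0.18 (0.13). Among 7 genes of the Snail, Twist and Zeb families, some of whose proteins bind *Loxl2* or *Loxl3*, the median was 0.14. *Snai1* averaged 648 ± 165 normalized counts in WT and 665 ± 306 in DTR tendons (SD, n = 3 each), *Zeb1*, the most abundant, was at 0.33 (0.13) and *Snai3*, the lowest, at -0.61 (0.57), and none of the 7 was called by either tool, with 3 higher at an unadjusted p under 0.05 by edgeR (5.52% of all genes tested). Of these, *Zeb1* and *Twist1* overlapped between the groups and *Zeb2* was higher without overlap (8.96% of all genes tested). *Twist2* (-0.51, SE 0.23) had each DTR library below each WT library (7.85% of all genes tested).

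**Figure D5:**
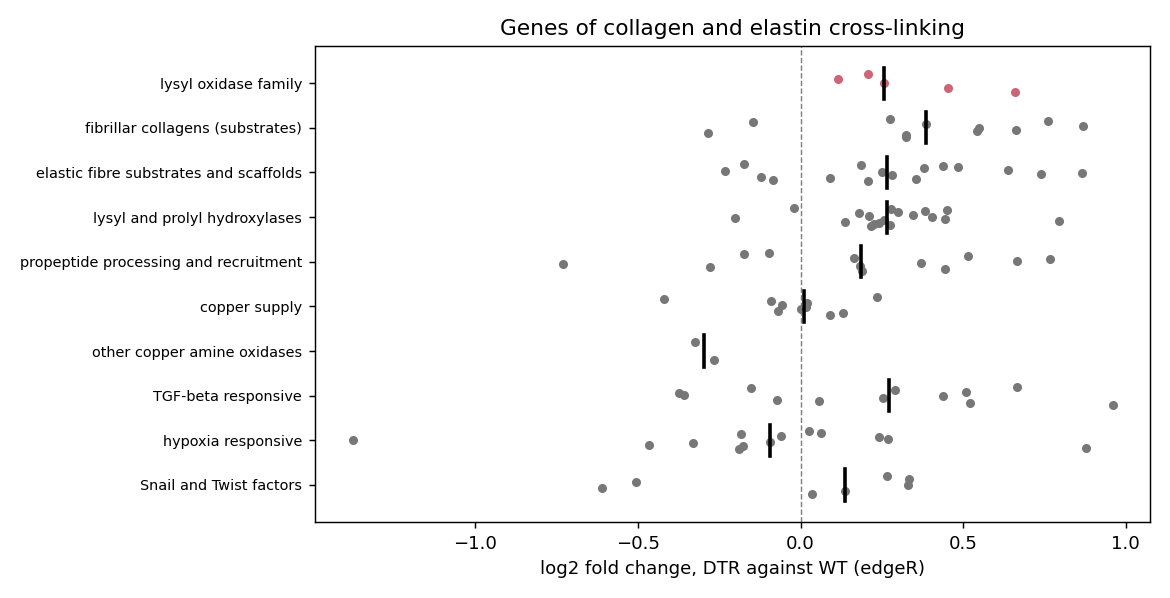
Log2 fold change of DTR against WT tendons from edgeR (horizontal axis) for each tested gene of the lysyl oxidase family (red) and of 9 lists (grey), with a black bar at each list's median. The medians of the substrate and hydroxylase lists lie to the right of 0, that of the copper supply list is at 0.010 and that of the hypoxia list at -0.094.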

How the data were processed

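The authors demultiplexed single-end reads with bcl2fastq, cleaned them with FastP, and ran featureCounts for the whole-number counts they deposited, which are not normalized. The aligner, genome build, annotation and strand setting are not given in the sources used here. A deposited signal table of normalized counts equals these counts over a size factor for each library (DESeq2 1.22.1 per the labels), and was used as an alternative. No column of either table belongs to another series.

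The counts were fitted in R 4.3.3 by edgeR 4.0.16 (filterByExpr, TMM, robust quasi-likelihood fit with genotype as the single term, Benjamini-Hochberg over all 17496 genes, threshold 0.05), with DESeq2 1.42.0 and limma 3.58.1 as alternatives. Standard errors were derived from the F statistic. Fold intervals are 95% t intervals on the log2 scale. Replicate libraries differed by a chi-square of 36.6 to 190 per degree of freedom, so all 6 entered as separate samples. With 3 tendons a group, precision is set by the spread between tendons more than by depth. The fits were first tested on simulated data with known changes.

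Transcript lengths, exon overlaps and coding sequence came from GENCODE M21 (GRCm38), in which 92.8% of the listed symbols were found. The *Lox* sequence and some genes that the rule below would name are not reported here. The rule for named genes took the 5 members, the extremes and the most abundant gene of each list, genes with a described role in cross-linking, and the 5 genes nearest to *Lox* and 3 nearest to each other member. Genes called by DESeq2 in a list, *Bnip3*, *Ndrg1*, *Twist1*, *Twist2*, *Zeb2*, the single marker genes *Cd163*, *Des*, *Matn3*, *Ms4a1* and *Nkg7*, the shares of all genes set against *Lox* or the family's sum, and the genes set against *Lox* as ratios were added after their values were seen. The members and lists were chosen with earlier results of these data known.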

Additional observations from a re-analysis of the deposited data

How the results depend on the processing

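The log2 fold changes of *Lox*, *Loxl1*, *Loxl2* and *Loxl4* kept their direction under all 20 alternatives, with *Lox* between 0.52 and 0.72, *Loxl1* between 0.077 and 0.60, *Loxl2* between 0.033 and 0.36 and *Loxl4* between 0.091 and 0.33. *Loxl3* lay between -0.067 and 0.18 and reversed to -0.067 with the skeletal muscle share as a covariate, a fit chosen after seeing the data, as were the fits with sex, without muscle and keratinocyte markers and without the 3 libraries with the most keratinocyte RNA; the cause was not tested. *Lox* passed an adjusted p of 0.05 under DESeq2 (log2 fold change 0.66) and without DTR replicate 2 (0.72), its adjusted p ranging from 5.78e-06 to 0.835 over the alternatives other than the fit with 1 WT library, whose p is not informative, and no other member passed. Of all genes, edgeR called 0 higher and 0 lower, DESeq2 called 197 and 269, and edgeR without the filter on low counts called 45 and 38. With 1 library left out edgeR called 0 to 103 higher and 0 to 441 lower, the most without DTR replicate 2, and 0 with any other library left out. *Lox* was at 0.57 to 0.72 with 1 library left out. Without DTR replicate 2 edgeR called 2 members each of the fibrillar collagen, elastic fibre, hydroxylase and processing lists and 0 of the other 5. These counts join both directions, and in that fit 103 of 17998 genes were called higher and 441 lower. With all 6 libraries DESeq2 called 3, 2, 1 and 3 members of the same 4 lists and 2 of the TGF-beta list. Those DESeq2 calls were all higher, beside 1.12% of all genes.

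The replicate number as a block called 0 genes higher and 1 lower and gave *Lox* 0.66 (adjusted p = 0.269), changing no member's call. Deviations of same-numbered libraries correlated at -0.188, -0.149 and -0.684, and those of other-numbered libraries at -0.454 to 0.559. They gave no sign that the numbers pair the samples. With 3 libraries a group this check cannot decide it, since the deviations within a group sum to 0.

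With 1 library left out, the medians of the lists were 0.31 to 0.52 for fibrillar collagens, 0.069 to 0.38 for elastic fibre genes and 0.19 to 0.35 for hydroxylases. They were 0.079 to 0.29 for processing genes, -0.045 to 0.046 for copper supply and -0.38 to -0.21 for other copper amine oxidases. The medians were 0.081 to 0.37 for TGF-beta responsive genes, -0.18 to -0.027 for hypoxia responsive genes and 0.072 to 0.26 for Snail, Twist and Zeb factors. The lows of all but the copper supply and other copper amine oxidase lists came without DTR replicate 1. The log2 ratios to *Lox* were -0.35 to -0.14 for *Loxl1*, -0.48 to -0.34 for *Loxl2*, -0.60 to -0.49 for *Loxl3* and -0.63 to -0.36 for *Loxl4*, and 1 added count reversed none of the ratios. With the median transcript length, WT levels per kb were 12940 for *Lox*, 4854 for *Loxl2*, 5295 for *Loxl3* and 157 for *Loxl4*, because 3 of the 5 *Loxl3* transcripts are short, so *Loxl3* then stood second. With the summed exon length, added after seeing the data, *Loxl3* was at 710.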
